A study of Mus musculus with 19 samples.

Results

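The 10 genes described here encode proteins that build, coat or empty the lipid droplet of the hepatocyte: G0s2, Pnpla2, Abhd5, Plin2, Plin4, Plin5, Cideb, Cidec, Fitm1 and Fitm2. They were chosen by name for their role in the pathway, with earlier results of these data known. Each is represented by the probe set with 1 gene symbol and the highest mean over all arrays. They are 10 of the 18193 genes on the array with such a probe set, and 8 of them are among the 8515 genes bright enough to be tested. Plin4 and Cidec stayed under that limit, which asked for a level over log2 4 on at least 4 arrays.

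The lipid droplet is a core of triglyceride and cholesteryl ester under a single layer of phospholipid and protein. Adipose triglyceride lipase, encoded by Pnpla2, makes the first cut in a triglyceride molecule, the protein of Abhd5 (CGI-58) activates it, and the protein of G0s2 binds and inhibits it. Perilipins coat the droplet and control access to it, CIDE proteins pass lipid between droplets or to lipoproteins, and FITM proteins sit in the endoplasmic reticulum, where droplets bud. The liver stores fat for a short time after part of it is removed, and this fat is later used while the remnant grows.

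The study put liver RNA of 19 mice, all male and C57BL/6, on Affymetrix arrays, 1 array per mouse. All mice were 10 to 12 weeks old, and all livers were remnants taken 2 h after 85% of the organ had been cut away. The groups were 4 livers null for both genes (Ager-null/Myd88-null, called double-null here), 6 Ager-null livers, 4 Myd88-null livers and 5 WT livers. RAGE, the product of Ager, is a receptor on the cell surface that binds proteins released from damaged cells, and Myd88 encodes the adaptor of most Toll-like receptors and of the IL-1 receptor. The labels name no promoter or Cre for the deletions, and livers without resection were not analysed here. Each comparison is between genotypes after resection, on 1 tissue homogenate per mouse, in which fewer cells of a type and less RNA per cell cannot be told apart. The p-values measure the spread between these arrays.

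Myd88 itself lay between 2.60 and 3.86 (log2) on double-null arrays, between 5.43 and 6.39 on Ager-null arrays, between 3.11 and 3.85 on Myd88-null arrays and between 5.24 and 5.92 on WT arrays, so it was low in the groups labelled as lacking it. Ager was under log2 4 on all 19 arrays and so checks no label. The extraction text of the labels speaks of glomeruli. The 6 hepatocyte markers on the array averaged between 14.5 and 14.7 on every array, and of 5 glomerulus and kidney markers Nphs1, Wt1, Synpo and Umod were over log2 4 on none. One array, Myd88-null 4, stood apart, with a median correlation with the other arrays of 0.965 against at least 0.979 for each other array. Each description in the labels holds an S number from 1 to 20, which the labels do not explain. All 6 Ager-null arrays lie in S 13 to 20, together with WT 5 and Myd88-null 4, and all 4 double-null arrays lie in S 1 to 12, so double-null and Ager-null share no range.

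The results below turn on G0s2, on chromosome 1, and Fitm1, on chromosome 14. Their promoter sequences are shown for that reason, as the 250 bases before the annotated start, from RefSeq on GRCm38.p6, and the array measured no binding or methylation there. The G0s2 window is chr1:193273189-193273438 on the minus strand and the Fitm1 window is chr14:55575424-55575673 on the plus strand. Capitals mark CCACCC (the CACCC box) and GGGCGG (the GC box) on either strand. Both motifs were added to the search after the sequences had been read.
G0s2: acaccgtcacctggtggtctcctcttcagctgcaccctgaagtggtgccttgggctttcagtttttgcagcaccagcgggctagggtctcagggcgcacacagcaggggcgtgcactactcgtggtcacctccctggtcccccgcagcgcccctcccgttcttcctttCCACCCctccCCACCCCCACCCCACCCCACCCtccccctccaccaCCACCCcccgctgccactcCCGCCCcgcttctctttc
Fitm1: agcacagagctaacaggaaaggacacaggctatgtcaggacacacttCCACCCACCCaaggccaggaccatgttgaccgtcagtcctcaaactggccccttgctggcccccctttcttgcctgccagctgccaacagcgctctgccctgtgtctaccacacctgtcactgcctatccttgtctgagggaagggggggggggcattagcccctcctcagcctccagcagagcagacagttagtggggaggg
The G0s2 window holds CCACCC at 6 places between bases -82 and -32 from the start, some sharing a base, and GGGCGG once, at bases -18 to -13, where it reads CCGCCC on the printed strand. The Fitm1 window holds CCACCC at 2 overlapping places between bases -203 and -194. Of all 32817 RefSeq promoter windows of this length, 28.1% hold CCACCC and 32.7% hold GGGCGG. All 10 genes have a RefSeq entry, with 12 windows between them, of which 4 hold CCACCC and 7 hold GGGCGG. The search on both strands also took in the TATA box (TATAAA), the CCAAT box, the E-box CACGTG, the nuclear receptor site AGGTCA, the FOXO site GTAAACA, the STAT site TTCNNNGAA and the glucocorticoid receptor site TGTTCT, and the G0s2 and Fitm1 windows held none of these letters. AGGTCA was found in windows of Abhd5, Plin2 and Plin5, against 14.03% of all windows. The G0s2 window is 67.2% G or C and the Fitm1 window 60.4%, against a median of 52.4% over all windows.

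G0s2, the inhibitor of adipose triglyceride lipase, had the largest differences among the 10 genes. Its probe set read 8.37, 5.66, 5.61 and 6.35 (log2 level) in the 4 double-null livers. It read 10.38, 8.50, 10.29, 8.13, 9.64 and 7.90 in the Ager-null livers and 9.25, 11.89, 9.81 and 12.01 in the Myd88-null livers, against 8.87, 9.76, 8.85, 10.96 and 9.39 in WT livers. Double-null arrays 2, 3 and 4 lay under every array of the other 3 groups, while double-null 1 lay within the Ager-null range. The double-null arrays did not overlap the Myd88-null or the WT arrays. The group means were 6.50 ± 1.29 in double-null (SD, n = 4), 9.14 ± 1.10 in Ager-null (n = 6), 10.74 ± 1.42 in Myd88-null (n = 4) and 9.57 ± 0.87 in WT livers (n = 5). From low to high the means ran double-null, Ager-null, WT and Myd88-null. Among the last 3 neither pair of neighbours differed beyond the spread in the test. The outer pair, Ager-null minus Myd88-null, was at -1.60 ± 0.68 with a 95% confidence interval of -3.03 to -0.17. It did not pass after adjustment (adjusted p = 0.260, limma).

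**Figure D1:**
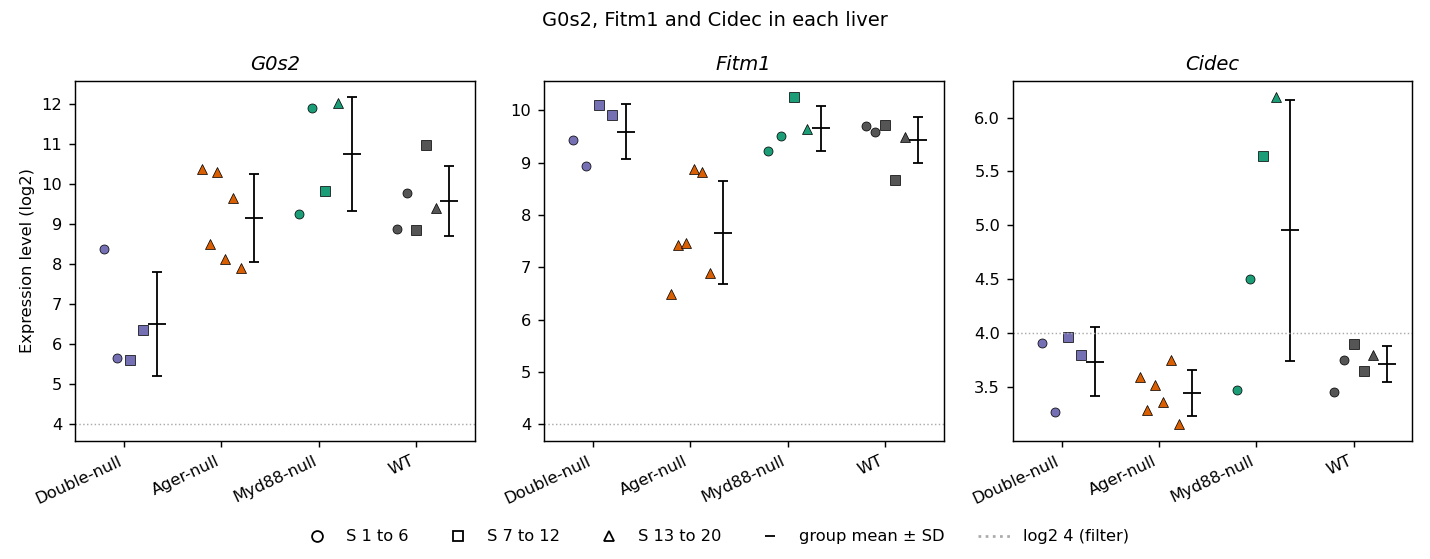
Log2 level of G0s2, Fitm1 and Cidec in each of 19 livers (points, shaped by the range of the S number), with the group mean ± SD, by genotype. G0s2 was lowest on double-null arrays 2, 3 and 4, Fitm1 on Ager-null arrays, and Cidec passed the dotted line at log2 4 on 3 Myd88-null arrays. Each panel has its own log2 axis.

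G0s2 fell in double-null against Myd88-null livers. The log2 difference was -4.24 ± 0.75 (SE), an 18.9-fold lower level with a 95% confidence interval of 6.39 to 56.1, and the adjusted p was 0.0254 (limma, Benjamini-Hochberg over 8515 genes). It was the only one of the 8 tested genes called at an adjusted p under 0.05 in that comparison, where 0.153% of all tested genes were called. G0s2 was also the only one of the 8 whose groups did not overlap, against 5.91% of all tested genes. Among arrays of S 1 to 6 the difference was -3.55 (2 arrays against 2), and among those of S 7 to 12 it was -3.84 (2 against 1). With the S range as a block it was -4.02 with an adjusted p of 0.114. The call was also lost without Myd88-null 2, Myd88-null 4, double-null 2, double-null 3 or double-null 4 (differences between -4.19 and -3.82, adjusted p between 0.0655 and 0.153), and it was kept without each of the other 14 arrays.

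G0s2 also fell in double-null against Ager-null livers, by 2.64 ± 0.68 on the log2 scale (adjusted p = 0.0487, limma), a 6.25-fold lower level with a 95% confidence interval of 2.32 to 16.8. This call was close to the threshold. It was kept without Ager-null 6, Myd88-null 1, Myd88-null 4 or double-null 1 and lost without each of the other 15 arrays (differences between -2.85 and -2.35, adjusted p between 0.0506 and 0.188). No S range holds both groups, and once the range entered as a block the difference was -1.91 with an adjusted p of 0.476. Against WT livers the double-null difference was -3.07 ± 0.71, which did not pass (adjusted p = 0.0983, 95% confidence interval -4.56 to -1.58). On the S 1 to 6 arrays it was -2.30 and on the S 7 to 12 arrays -3.93, with 2 arrays against 2 in each. Among 19 omissions of 1 array, only that of double-null 1, the highest of its group, made this difference pass, at -3.69 (adjusted p = 0.0258). Other omissions brought it to as little as -2.72 in size, and the adjusted p to as much as 0.384.

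Neither single deletion changed G0s2 past the threshold. Ager-null minus WT was -0.42 ± 0.64 (adjusted p = 0.731, limma) and Myd88-null minus WT was 1.18 ± 0.71 (adjusted p = 0.365), with 95% confidence intervals of -1.77 to 0.92 and of -0.31 to 2.66. The interaction, (double-null minus Ager-null) minus (Myd88-null minus WT), asks whether Myd88 loss acts differently where Ager is also lost. For G0s2 it was -3.82 ± 0.98 (adjusted p = 0.0491, 95% confidence interval -5.88 to -1.75). G0s2 was the only one of the 8 genes called, against 2.41% of all tested genes. This call was kept without WT 3, WT 4, Ager-null 4, Ager-null 6, Myd88-null 1 or double-null 1 and lost without each of the other 13 arrays (estimates between -4.13 and -3.40, adjusted p between 0.0514 and 0.112). Once the S range entered as a block the interaction was -3.01 with an adjusted p of 0.366.

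Markers of Kupffer cells and macrophages were low on 1 Myd88-null array. Their mean level per array lay between 7.75 and 8.52 in double-null, between 7.46 and 8.68 in Ager-null, between 6.03 and 8.11 in Myd88-null and between 7.61 and 8.68 in WT livers, the lowest being Myd88-null 4. Myd88-null 1, 2 and 3, at 8.11, 7.77 and 7.94, lay within the range of each other group. All 9 markers had a higher mean in double-null than in Myd88-null livers, by a median of 0.67, and 0 of 9 were called. Their part in the G0s2 differences was not tested. The 6 hepatocyte markers had a median difference of 0.00 in the same comparison.

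Pnpla2, the lipase that G0s2 inhibits, and Abhd5, its activator, had no called difference in any of the 7 comparisons. Pnpla2 averaged 9.51 ± 0.20 in double-null, 9.79 ± 0.30 in Ager-null, 9.75 ± 0.30 in Myd88-null and 9.62 ± 0.16 in WT livers, and its arrays ran from 9.29 to 10.24. For double-null minus Myd88-null, where G0s2 differed most, the Pnpla2 difference was -0.23 ± 0.17 with a 95% confidence interval of -0.60 to 0.13. Abhd5 averaged 8.95 ± 0.18 in double-null, 9.03 ± 0.33 in Ager-null, 8.53 ± 0.40 in Myd88-null and 8.90 ± 0.26 in WT livers. Its largest difference was Ager-null minus Myd88-null, at 0.50 ± 0.19 (adjusted p = 0.205, limma). The other bright Abhd5 probe set gave 0.00 ± 0.18 there, and over the 19 arrays the correlation between these probe sets was 0.12, so they disagree on this gene. Abhd5 lies on chromosome 9, as does Myd88, with 89 annotated genes between them in the RefSeq order.

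Among the perilipins, Plin2 and Plin5 were bright and Plin4 was not. Plin2, the coat protein of most hepatocyte droplets, averaged 12.75 ± 0.34 in double-null, 12.56 ± 0.14 in Ager-null, 12.76 ± 0.34 in Myd88-null and 12.53 ± 0.16 in WT livers. Its largest difference, Myd88-null minus WT, was 0.23 ± 0.16 (adjusted p = 0.451, limma), with a 95% confidence interval of -0.12 to 0.57. Plin5, which tethers droplets to mitochondria and binds the lipase and its activator, averaged 10.86 ± 0.46 in double-null, 11.23 ± 0.42 in Ager-null, 11.36 ± 0.38 in Myd88-null and 10.88 ± 0.74 in WT livers. Its interaction estimate was -0.85 ± 0.45 (adjusted p = 0.228), and its other probe set followed it closely over the 19 arrays (r = 0.98). WT livers alone spanned the whole Plin5 range of the 19 arrays, with 11.21, 10.77, 10.22, 11.98 and 10.22 on the 5 arrays.

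Plin4, a perilipin best known from adipocytes and muscle, was over log2 4 on 1 array of 19, Myd88-null 4, at 5.04. Its group means were 2.92 in double-null, 2.95 in Ager-null, 3.72 in Myd88-null and 2.99 in WT livers. In a fit of all 18193 genes without the limit on low levels, Myd88-null minus WT was 0.73 ± 0.30 (adjusted p = 0.270, limma). Plin4 and Plin5 are neighbours on chromosome 17, with 0 annotated genes between them.

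**Figure D2:**
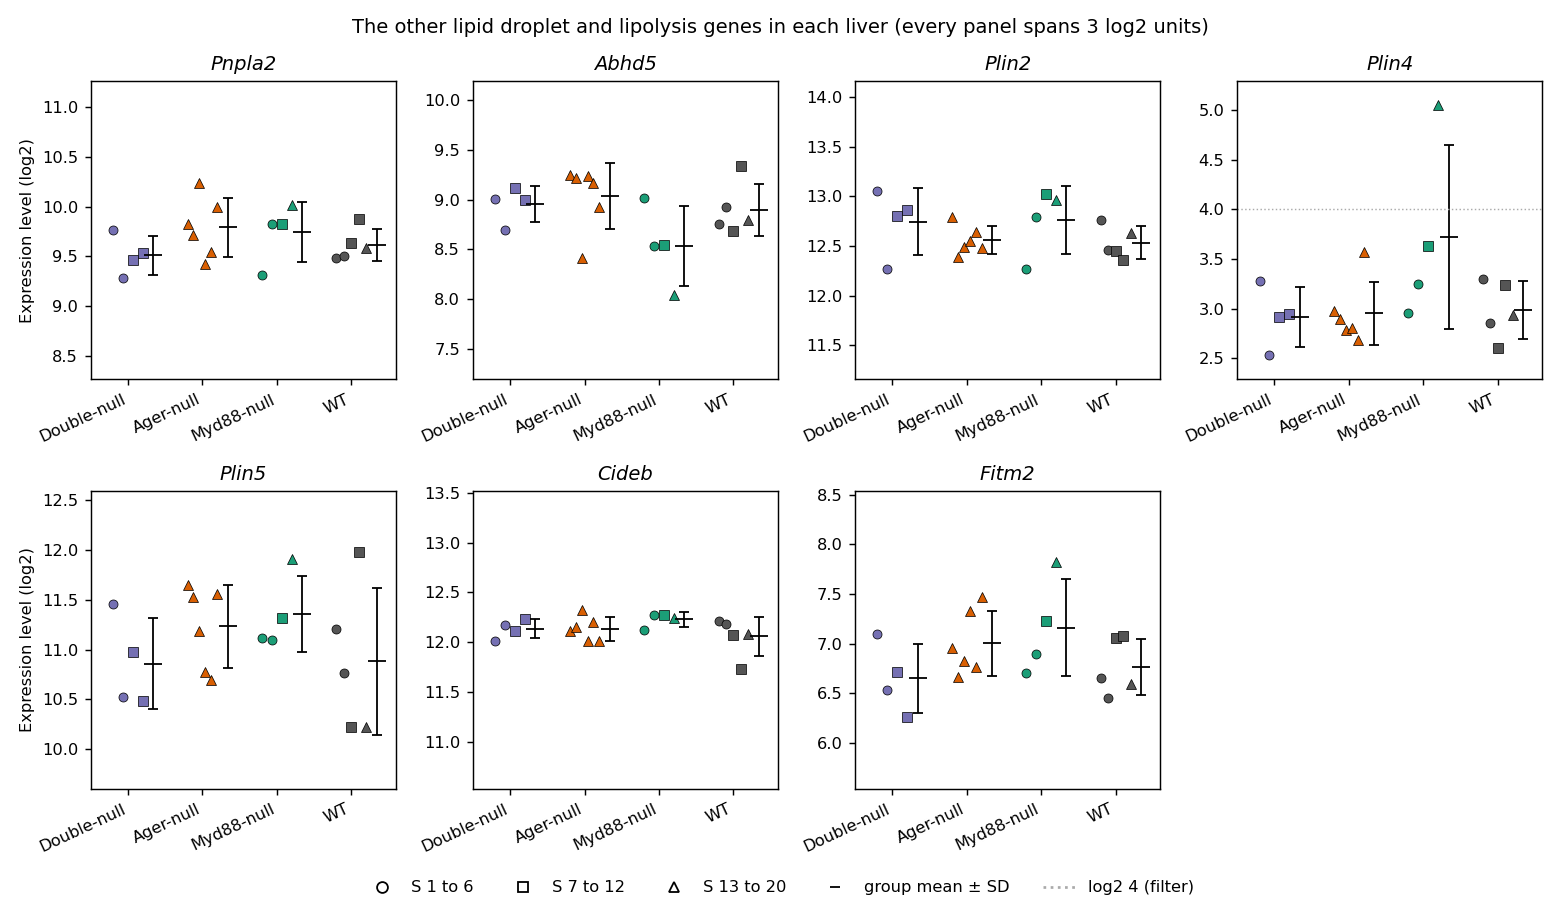
Log2 level of the other 7 genes in each of 19 livers (points, shaped by the range of the S number), with the group mean ± SD, by genotype; every panel spans 3 log2 units. Groups overlapped for each of these genes, Cideb varied least, and Plin4 passed the dotted line at log2 4 on Myd88-null 4 only.

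The CIDE genes differed in level and in spread. Cideb, which serves the lipidation of very-low-density lipoproteins in hepatocytes, averaged 12.13 ± 0.09 in double-null, 12.13 ± 0.12 in Ager-null, 12.23 ± 0.07 in Myd88-null and 12.06 ± 0.19 in WT livers. Its residual SD within groups was 0.132, and 8.24% of tested genes had a lower one. Its differences between groups were at most 0.17 in size, with intervals that stayed within 0.39 of 0 for the pairs of groups.

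Cidec (Fsp27), which fuses droplets into larger ones, was near the floor of the array in most livers. It read 3.91, 3.27, 3.96 and 3.79 in double-null livers and 3.59, 3.29, 3.52, 3.36, 3.75 and 3.15 in Ager-null livers. The Myd88-null livers read 3.47, 4.50, 5.65 and 6.19, and the WT livers 3.45, 3.75, 3.90, 3.65 and 3.80. Only Myd88-null arrays 2, 3 and 4 passed log2 4, and Myd88-null 1 lay within the range of the other groups. Since 3 arrays are fewer than the limit asks for, Cidec was not among the tested genes. In the fit of all 18193 genes, Ager-null minus Myd88-null was -1.51 ± 0.34 (adjusted p = 0.0545, limma) and Myd88-null minus WT was 1.24 ± 0.35 (adjusted p = 0.133). Double-null minus Myd88-null was -1.22 ± 0.37 (adjusted p = 0.291). Among 19 omissions of 1 array, only that of Myd88-null 1, the lowest of its group, made these 3 differences pass. They were then -2.002 (adjusted p = 0.00068), 1.74 (adjusted p = 0.00276) and -1.71 (adjusted p = 0.0105). Other omissions brought them to as little as -1.10, 0.83 and -0.81 in size. The adjusted p then rose to as much as 0.175, 0.422 and 0.788. Myd88-null minus WT was 0.38 within S 1 to 6 (2 arrays against 2), 1.87 within S 7 to 12 (1 against 2) and 2.39 within S 13 to 20 (1 against 1). Of 6 adipocyte markers on the array, Adipoq, Lep and Retn were over log2 4 on no array, and Cidea did not pass the limit. Fabp4 averaged between 8.91 and 9.38 in the 4 groups, and Lipe between 3.48 and 4.02.

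Fitm1 fell in Ager-null livers. FITM1 protein binds triglyceride and diacylglycerol in the endoplasmic reticulum and is best known from skeletal and heart muscle. Its probe set read 9.43, 8.94, 10.10 and 9.91 in double-null livers. It read 6.49, 7.44, 7.46, 8.89, 8.82 and 6.90 in Ager-null livers and 9.23, 9.50, 10.25 and 9.65 in Myd88-null livers, against 9.70, 9.60, 9.73, 8.68 and 9.49 in WT livers. Ager-null arrays 1, 2, 3 and 6 lay under every array of the other groups, and Ager-null 4 and 5 lay above WT 4 alone. The group means were 9.60 ± 0.52 in double-null, 7.67 ± 0.99 in Ager-null, 9.66 ± 0.43 in Myd88-null and 9.44 ± 0.43 in WT livers, and the 3 groups other than Ager-null did not differ beyond their spread in the test.

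Ager-null minus WT was -1.77 ± 0.38 for Fitm1 (adjusted p = 0.0357, limma), a 3.42-fold lower level with a 95% confidence interval of 1.96 to 5.95. Fitm1 was the only one of the 8 genes called in this comparison, where 1.26% of all tested genes were called. Groups overlapped for all 8 genes, against 3.7% of all tested genes without overlap. The call was lost without WT 1, WT 2, WT 5, Ager-null 2 or Ager-null 3 (differences between -1.76 and -1.71, adjusted p between 0.0600 and 0.109). Within S 13 to 20 the difference was -1.83, against WT 5 alone, and once the S range entered as a block it was -1.77 with an adjusted p of 0.157. Without the limit on low levels the adjusted p over all 18193 genes was 0.0516.

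Ager-null minus Myd88-null was -1.99 ± 0.41 for Fitm1 (adjusted p = 0.0216, limma), a 3.98-fold lower level with a 95% confidence interval of 2.20 to 7.18. Fitm1 was again the only one of the 8 called, against 1.26% of all tested genes, and the only one whose groups did not overlap, against 3.92%. The call was lost without Myd88-null 2, Myd88-null 3 or Myd88-null 4 (differences between -2.04 and -1.79, adjusted p between 0.0551 and 0.0647). Within S 13 to 20 the difference was -1.98, against Myd88-null 4 alone, and once the S range entered as a block it was -2.04 with an adjusted p of 0.0537.

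Fitm1 rose in double-null against Ager-null livers. The log2 difference was 1.93 ± 0.41 (adjusted p = 0.0250, limma), a 3.81-fold higher level with a 95% confidence interval of 2.11 to 6.88. Fitm1, higher, and G0s2, lower, made 2 of 8 genes called in this comparison, against 2.44% of all tested genes. Groups did not overlap for Fitm1 alone, against 8.39% of all tested genes. The Fitm1 call was lost without Ager-null 3, double-null 3 or double-null 4 (differences between 1.76 and 1.89, adjusted p between 0.0568 and 0.123). Since no S range holds both groups, genotype and S range cannot be told apart here. Once the range entered as a block the difference was 1.93 ± 0.67 with an adjusted p of 0.187. The Fitm1 interaction was 1.71 ± 0.58 and did not pass (adjusted p = 0.0904). Double-null minus Myd88-null was -0.06 ± 0.44, with a 95% confidence interval of -0.99 to 0.87.

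Markers of skeletal muscle, where Fitm1 is best known, were near the floor of the array. Of 8 markers Acta1, Ckm, Myh4, Myh1, Tnnt3, Tnni2 and Myh2 were over log2 4 on no array, and Mylpf averaged between 4.23 and 4.37 in the 4 groups. Stellate cell markers were higher on average in Ager-null than in WT livers. Their mean level per array lay between 6.28 and 6.67 in double-null, between 6.27 and 6.76 in Ager-null, between 6.11 and 6.55 in Myd88-null and between 5.96 and 6.36 in WT livers, so all groups overlapped. In the comparison of Ager-null with WT, 6 of 6 tested markers had a higher mean in Ager-null livers, by a median of 0.61. Col1a2 was the 1 called, at 0.72 ± 0.15 (adjusted p = 0.0357, limma), against 1.26% of all tested genes. It was also the 1 called of 6 in Ager-null minus Myd88-null (higher), against 1.26% of all tested genes. In double-null minus Ager-null it was again the 1 called (lower), against 2.44%. Col1a2 averaged 4.32 in Ager-null livers and under log2 4 in each of the other groups. These levels are close to the background of the array, so nothing is read from these calls about stellate cells. Double-null minus WT had 5 of 6 markers higher, by a median of 0.30, with 0 called. Their part in the Fitm1 differences was not tested.

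Fitm2, the widely expressed paralog of Fitm1, averaged 6.65 ± 0.35 in double-null, 7.003 ± 0.323 in Ager-null, 7.16 ± 0.49 in Myd88-null and 6.77 ± 0.28 in WT livers. It had no called difference. Double-null minus Myd88-null was -0.51 ± 0.24 (adjusted p = 0.308, limma) and the interaction was -0.75 ± 0.32 (adjusted p = 0.147). The Ager-null minus WT difference, where Fitm1 fell, was 0.24 ± 0.21 for Fitm2, with a 95% confidence interval of -0.20 to 0.67.

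**Figure D3:**
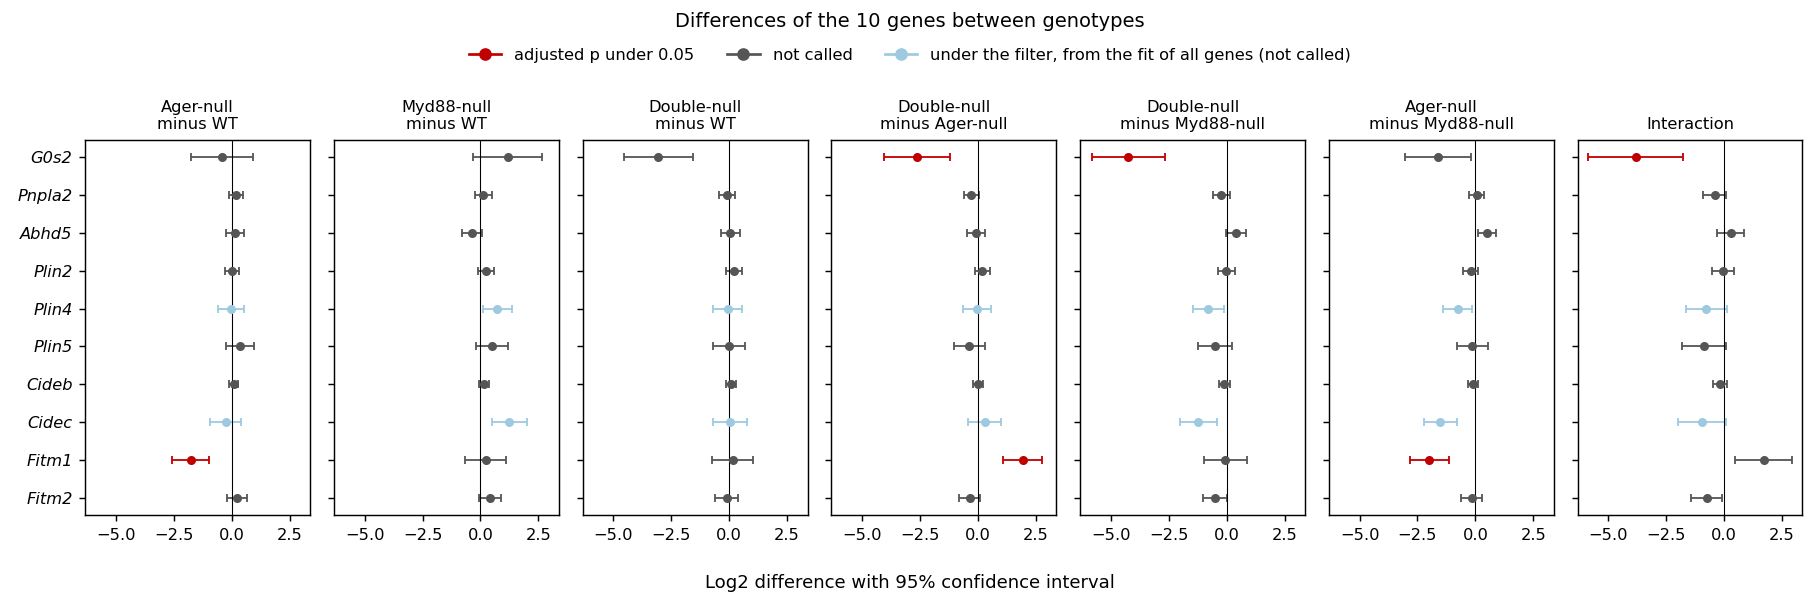
Log2 difference of each of the 10 genes in the 7 comparisons (points) with its 95% confidence interval (bars); red marks an adjusted p under 0.05 and pale blue marks Plin4 and Cidec from the fit of all genes. G0s2 is red for double-null minus Ager-null, double-null minus Myd88-null and the interaction, and Fitm1 for the 3 comparisons that set Ager-null against another group.

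In the other comparisons with WT, 0 of the 8 genes were called. In Myd88-null minus WT, 0.399% of all tested genes were called by limma, and at an unadjusted p under 0.05 the counts were 0 of the 8 genes and 19.6% of all tested genes. There 0 of the 8 genes were without overlap, against 4.52% of all tested genes. In double-null minus WT, 0.317% of all tested genes were called, and at an unadjusted p under 0.05 the counts were 1 of the 8 genes, G0s2, and 8.57% of all tested genes. G0s2 was also the 1 gene of the 8 without overlap in that comparison, against 3.81%. The median difference of the 8 genes was 0.22 in Myd88-null minus WT, against 0.06 over all tested genes. It was -0.29 for the interaction, against -0.02 over all tested genes, and at most 0.18 in size in the other 5 comparisons. The comparisons share arrays, so their values for a gene are not independent of each other.

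The 10 genes also differed in how much they varied between mice of a genotype. The residual SD of G0s2 was 1.16, and 99.9% of tested genes had a lower one. It was 0.684 for Fitm1, with 97.3% of tested genes lower, and 0.526 for Plin5, with 92.4% lower. The other tested genes lay between 0.132 and 0.358, against a median of 0.273 over all tested genes. The deviations of arrays from their group means were correlated between pairs of these genes, over 19 arrays and 36 pairs (all but Plin4). The largest was Plin2 with Cidec, with Pearson's r of 0.6999 (permutation p = 0.00084, adjusted over the pairs 0.0302) and Spearman's rho of 0.611 (permutation p = 0.00687, adjusted 0.158). Without the 2 arrays farthest from the median of Plin2 the r was 0.450, so the relation rests partly on those arrays. Cidec was over log2 4 on 3 of the 19 arrays, so most of its deviations are near the background of the array and nothing is read from this pair. Within S 1 to 6 the r was 0.734 (6 arrays) and within S 13 to 20 it was 0.681 (8 arrays), and S 7 to 12 holds too few arrays. For G0s2 with Pnpla2 the r was 0.633 (permutation p = 0.00383, adjusted 0.0689) and rho 0.563 (permutation p = 0.0133, adjusted 0.158). That relation did not pass after adjustment, and its r was 0.544 without the 2 arrays farthest from the median of G0s2, 0.972 within S 1 to 6 and 0.470 within S 13 to 20.

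Other genes of lipid storage and use were read from 4 lists of named genes. Of 10 tested proteins found on or at droplets, 0 were called in any of the 7 comparisons, and of 11 tested lipases and esterases, 0 were called. Mgll, which encodes monoacylglycerol lipase, had the smallest p of the lipases for Ager-null minus Myd88-null, where it averaged 10.80 ± 0.14 in Ager-null and 11.46 ± 0.47 in Myd88-null livers (difference -0.66 ± 0.18, adjusted p = 0.0676, limma). It passed without Myd88-null 1, at -0.77 (adjusted p = 0.0467). Other omissions of 1 array brought the Mgll difference to as little as -0.43 in size, and the adjusted p to as much as 0.202. Of 14 tested genes in a mixed list of transcriptional regulators of lipid metabolism and genes induced by PPAR-alpha, the receptor that fatty acids activate, 0 were called. Of 15 tested genes of triglyceride assembly and export, 1 was called: Lpin1, which encodes a phosphatidate phosphatase and transcriptional coactivator. Over all tested genes, between 0.153% and 2.44% were called in a comparison, so few or no calls are usual for lists of this size. Lpin1 read 12.28, 11.93, 11.75 and 12.09 in double-null livers, all under the Ager-null livers, which read 12.85, 12.95, 13.18, 12.80, 12.59 and 13.10. Between these groups 8.39% of all tested genes did not overlap. Lpin1 read 11.82, 12.64, 12.73 and 13.07 in Myd88-null livers and 12.12, 11.91, 12.74, 12.44 and 11.80 in WT livers. Lpin1 averaged 12.01 ± 0.23 in double-null, 12.91 ± 0.21 in Ager-null, 12.56 ± 0.53 in Myd88-null and 12.20 ± 0.39 in WT livers. It fell by 0.90 ± 0.21 in double-null against Ager-null livers (adjusted p = 0.0409, limma), and its interaction was -1.26 ± 0.31 (adjusted p = 0.0444). The call against Ager-null was kept without WT 2, WT 3, WT 4, WT 5, Ager-null 5, Myd88-null 1, Myd88-null 3 or Myd88-null 4 and lost without each of the other 11 arrays (adjusted p between 0.0524 and 0.157). The interaction was kept without WT 3, WT 4, Ager-null 1, Myd88-null 1 or double-null 1 and lost without each of the other 14 (adjusted p between 0.0501 and 0.109). Once the S range entered as a block the adjusted p was 0.253 for the difference and 0.225 for the interaction. The median interaction estimate was -0.12 for the droplet proteins (1 of 10 genes higher), -0.17 for the lipases and esterases (3 of 11), -0.30 for triglyceride assembly and export (4 of 15) and -0.47 for the regulators and PPAR-alpha-induced genes (4 of 14), against -0.02 over all tested genes.

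The largest difference in these lists without a call was that of Hilpda, which encodes another inhibitor of adipose triglyceride lipase. Hilpda averaged 5.89 ± 0.35 in double-null, 7.28 ± 0.95 in Ager-null, 8.47 ± 0.89 in Myd88-null and 7.26 ± 1.14 in WT livers. Double-null minus Myd88-null was -2.58 ± 0.59 (adjusted p = 0.0896, limma) and the interaction was -2.60 ± 0.78 (adjusted p = 0.0646). Both passed without Myd88-null 1, at -3.01 (adjusted p = 0.0214) and -3.03 (adjusted p = 0.0137). The interaction also passed without Ager-null 6, at -2.97 (adjusted p = 0.0445). Other omissions of 1 array brought the 2 estimates to as little as -2.35 and -2.23 in size. The adjusted p then rose to as much as 0.316 and 0.145. Cd36, a fatty acid transporter of the plasma membrane, averaged 10.13 ± 0.33 in double-null, 8.93 ± 0.97 in Ager-null, 10.40 ± 0.47 in Myd88-null and 10.20 ± 0.39 in WT livers. Its Ager-null minus WT difference was -1.26 ± 0.36 (adjusted p = 0.0711), and Ager-null minus Myd88-null was -1.47 ± 0.38 (adjusted p = 0.0637). The second of these passed without Ager-null 4, at -1.69 (adjusted p = 0.0391), and without Ager-null 5, at -1.69 (adjusted p = 0.0435). Other omissions brought it to as little as -1.20 in size, and the adjusted p to as much as 0.187.

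Hilpda was also the gene whose level over the 19 arrays was most like that of G0s2 among all tested genes, with Pearson's r of 0.828 and 0.640 for the deviations from group means. The next were Tedc2 (r of 0.821 over all arrays and 0.490 for the deviations), St3gal5 (0.758 and 0.632), Ppp1r3b (0.735 and 0.393) and Nlrc5 (0.712 and 0.590). For Fitm1 they were Gstt1 (0.922 and 0.774), Lgals1 (0.912 and 0.718), Cd36 (0.893 and 0.765), Tpm2 (0.861 and 0.628) and Crygn (0.848 and 0.562). Lgals1, which encodes galectin-1, averaged 10.83 in double-null, 9.31 in Ager-null, 11.16 in Myd88-null and 10.72 in WT livers. These are descriptions of 19 arrays that share groups and S ranges, and the genes were picked as the highest among all other tested genes.

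**Figure D4:**
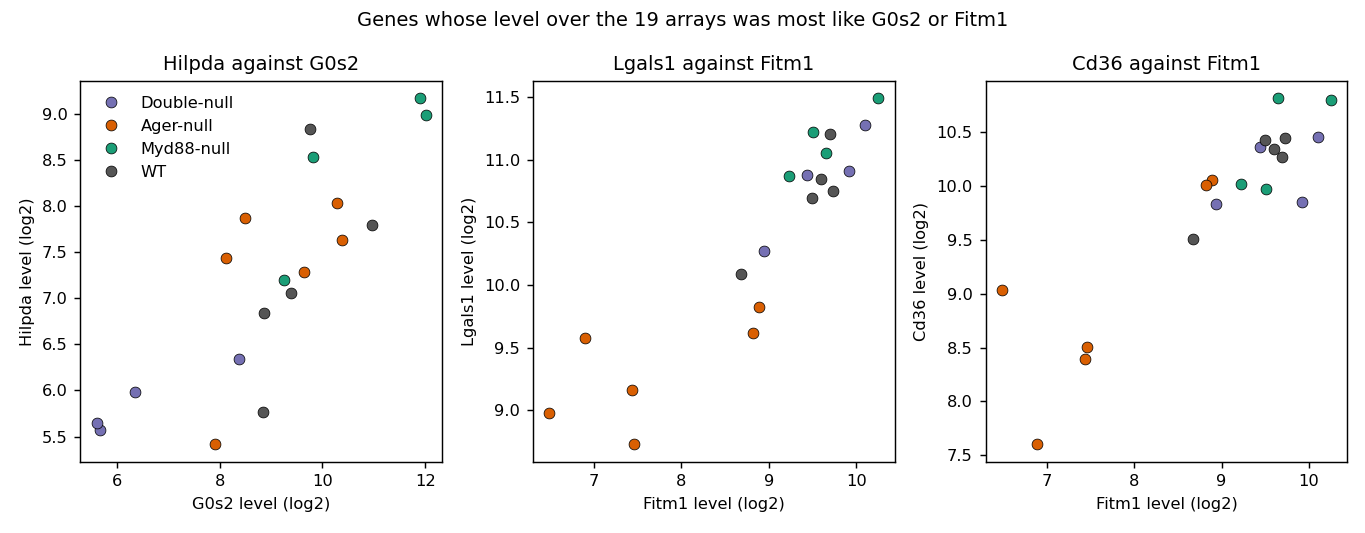
Log2 level of Hilpda against G0s2, and of Lgals1 and Cd36 against Fitm1, with 1 point per liver coloured by genotype. Double-null 2, 3 and 4 have the lowest G0s2 levels and Hilpda levels under log2 6, while the lowest Hilpda level is that of Ager-null 6. All 6 Ager-null livers lie under the other groups for Lgals1, and Ager-null 4 and 5 lie within the range of the other groups for Cd36.

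**Figure D5:**
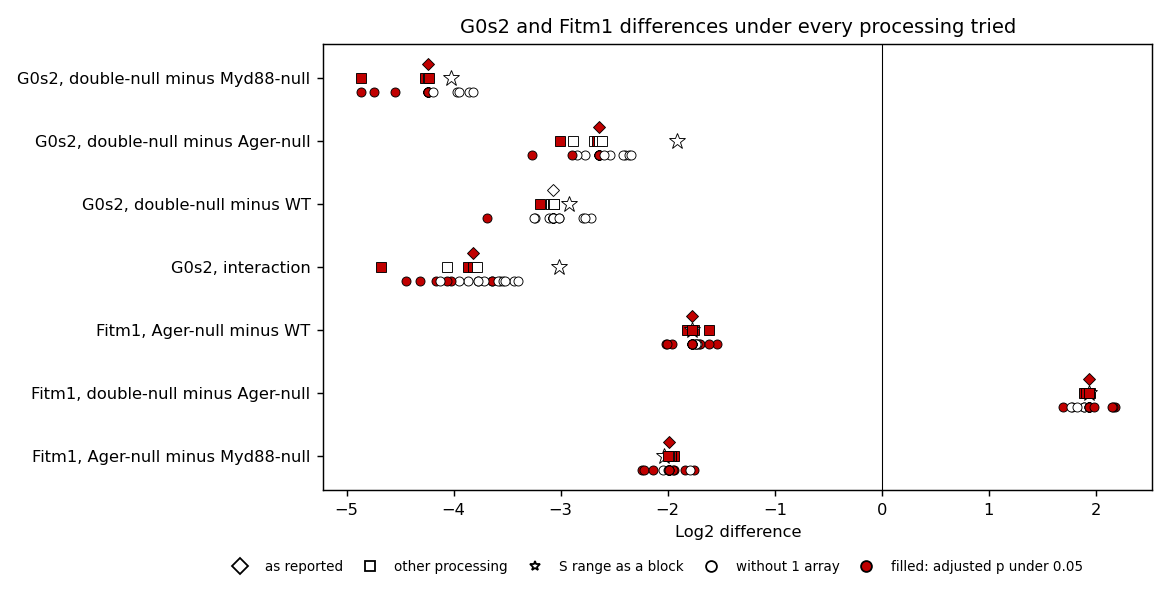
Log2 difference of G0s2 (4 comparisons) and Fitm1 (3 comparisons) as reported (diamonds), under other processing (squares, with the S range as a block as stars) and with 1 array left out (circles); red fill marks an adjusted p under 0.05. Every estimate plotted kept its direction, while the calls of G0s2 in double-null minus Ager-null and in the interaction were lost under many settings.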

How the data were processed

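For 19 arrays the deposited values are log2 levels per probe set. The authors computed them with GCRMA 2.16 (per the submitters' processing notes), which removes background with the help of probe sequence. No source used here states later steps, and the log2 values were taken as they stand. A 3' IVT kit was used to amplify and label the RNA, per the labels' protocols. Arrays have no sequencing depth, so their number limits the precision.

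Of the probe sets with 1 gene symbol in the platform annotation, the one with the highest mean stood for its gene. Genes over log2 4 on at least 4 arrays entered limma 3.58.1 in R 4.3.3, with 4 genotype groups in 1 two-sided fit. In each of 7 comparisons p-values were adjusted over 8515 genes (Benjamini-Hochberg), and adjusted values under 0.05 count as calls. Replicate arrays were at least 0.328 (log2, root mean square) apart, so no array was a copy. The fit was tested on simulated data.

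The 10 genes, the lists and the motifs were chosen with earlier results of these data known. Values of every array are given for those of the 10 genes with a call, or with an estimate of at least 1, in a comparison, and for Lpin1. Called genes of a list are named, otherwise up to 2 with the smallest p in a comparison, and as most alike the 5 genes with the highest Pearson r. Array deviations were permuted 100000 times in Python 3.11.15 with scipy 1.17.1. Alternatives left out each array, changed the scaling, filter, floor, probe-set rule or array weights, or added a block. Their effect is given in the closing section.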

Additional observations from a re-analysis of the deposited data

Results flagged for a closer look

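The G0s2 interaction of Ager and Myd88 loss was -3.82 (log2), which passed close to the threshold in a test of the difference between the effects of Myd88 loss without and with Ager (limma, adjusted p = 0.0491). The call was lost without any 1 of 13 of the 19 arrays, with the S range as a block (-3.01, adjusted p = 0.366), with a replicate block (-4.07, adjusted p = 0.0676) and without the limit on low levels (adjusted p = 0.0724). Of 40 sets of arrays checked, 1 for each of the 10 genes in each group, 3 held an array far from the rest by Dixon's criterion, and chance gives about 1 in 20. Fitm1 was 8.68 in WT 4, where the nearest other WT array was at 9.49. Cideb was 11.73 in WT 4, where the nearest was at 12.08. Plin4 was 3.57 in Ager-null 6, where the nearest was at 2.98, all under the log2 4 limit.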

How the results depend on the processing

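Differences that were called, at least 1 in size or under an unadjusted p of 0.05 (in the lists, the 2 smallest p per list and comparison) were recomputed under the alternatives that kept the gene, and none of them reversed. Lipe dropped out under both stricter filters and the mean of probe sets, and the filter settings do not apply to Plin4 and Cidec. Smaller differences, such as that of Fitm1 in double-null minus Myd88-null, were not recomputed. With the S range as a block, 0 of the 8 genes were called in Ager-null minus WT, in double-null minus Ager-null, in double-null minus Myd88-null, in Ager-null minus Myd88-null and in the interaction. With each comparison fitted on only its own 2 groups, 0 were called in Ager-null minus WT, in double-null minus Myd88-null and in Ager-null minus Myd88-null, and 1 in double-null minus Ager-null. Without the limit on low levels, which more than doubles the genes adjusted for, 0 were called in Ager-null minus WT, 1 in double-null minus Ager-null and 0 in the interaction. Centring on array medians and a floor at log2 4 left 0 called in the interaction, where the adjusted p of G0s2 was 0.0501 and 0.0507. Quantile normalization left 1 called in double-null minus Ager-null. With array weights 1 was called in double-null minus WT and 2 in the interaction. With the S range as a random block, an alternative chosen after seeing the data, 1 was called in double-null minus Ager-null and 0 in the interaction. The cause of these changes was not tested beyond the number of genes adjusted for.

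Replicate numbers were not used to pair the samples in the main fit. The deviations of 25 same-numbered pairs correlated between -0.302 and 0.471, with 9 over 0.1. Their median was 0.052, against 0.0047 for 109 other pairs. The spread of the other pairs was not computed, so these values do not settle whether the numbers pair arrays. With a replicate block 1 gene was called in double-null minus Ager-null, 0 in double-null minus Myd88-null and 0 in the interaction.

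With 1 array left out at a time, genes called ranged from 0 to 1 in Ager-null minus WT, from 0 to 0 in Myd88-null minus WT, from 0 to 1 in double-null minus WT, from 0 to 2 in double-null minus Ager-null, and from 0 to 1 in double-null minus Myd88-null, in Ager-null minus Myd88-null and in the interaction. Genes whose groups did not overlap ranged from 0 to 1 in Ager-null minus WT, from 0 to 3 in Myd88-null minus WT, from 1 to 2 in double-null minus WT, in double-null minus Ager-null and in Ager-null minus Myd88-null, and from 1 to 4 in double-null minus Myd88-null. Leaving out an array can only add to such counts, for any gene. The share over all tested genes was computed with all arrays only, at 3.7% to 8.39%, so nothing is read from these ranges about the 8 genes. Over all tested genes, calls in double-null minus Myd88-null numbered 13 and ranged from 2 to 446, and calls in the interaction numbered 205 and ranged from 0 to 1739. Levels near log2 4, as for Cidec and Plin4, lie close to the background of the array.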
